A study of Rattus norvegicus with 9 samples.

Results

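Bladder RNA from female rats was measured on 9 single-colour arrays, and the arrays from rats given tolterodine were compared with all arrays from rats given none. The titles put 3 arrays in a group of partial bladder outlet obstruction (pBOO) with tolterodine, 3 in a pBOO group and 3 in a sham-operation group, all at 3 weeks. Per the treatment protocol, obstruction was made by tying the urethra near the bladder over a thin catheter, and sham rats had no ligature. Strain, age, the dose and route of tolterodine and a vehicle are not given in the sources used here. All RNA came from whole bladder, so a change in the number of cells of a type and a change in RNA per cell cannot be told apart. The labels state that 5 bladder specimens per group were examined and do not say whether an array carries 1 animal or a pool, so each p-value here rests only on array-to-array spread, which may be technical. The protocol and the sample codes use the same letters for obstruction and sham with opposite meanings. The main comparison is therefore the tolterodine mean minus the average of the pBOO and sham means, which stays the same if these names are exchanged. Values given against pBOO or sham alone follow the titles.

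Tolterodine blocks muscarinic acetylcholine receptors, through which parasympathetic nerves contract the detrusor, the smooth muscle of the bladder wall. The drug is used against bladder overactivity. The wall also holds a urothelium, whose superficial umbrella cells form the barrier to urine, and a matrix made by fibroblasts and muscle. Muscarinic M2 and M3 receptors are coupled to different G proteins, and β-adrenoceptors relax the same muscle.

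Levels below are log2 signals relative to the 75th percentile of an array, so a level of 0 is that percentile. That percentile lay between 523 and 1440 intensity units, and 72.1% to 80.1% of spots were well above background. Levels called well above background started between -6.29 and -5.54, so levels near or under these values are close to background. Acta2 (smooth muscle actin) lay between 5.74 and 6.53 and the uroplakin Upk1b between 0.59 and 1.77 on every array, so markers of bladder muscle and urothelium were present in all groups. The arrays were read in 3 scans: tolterodine 1 and 2 with sham 2 and 3, the pBOO arrays with sham 1, and tolterodine 3 alone. No scan held tolterodine and pBOO arrays together. Sham 1 lay apart from sham 2 and sham 3 for many of the genes below, and gaps without it are given beside a number of them.

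Of 11047 genes tested, 3366 (30.5%) differed between the tolterodine arrays and the average of the untreated groups, 2370 higher (21.5%) and 996 lower (9.02%), at a limma adjusted p under 0.05. Among 10104 genes with a value on every array, 2002 (19.8%) had their 3 tolterodine arrays all outside the range of the 6 others. Of these 1520 (15%) lay above and 482 (4.77%) below. These genes were chosen by that position, so their separation is a description and not a test result. Their number follows the scaling: scaled to the array median the counts were 1086 above and 935 below, and with quantile scaling 1170 and 905. The share above among genes outside thus went from 75.9% to 53.7% and 56.4%. The median difference of all genes was 0.09 at the 75th percentile and -0.01 at the median, so small gaps on either side move with the reference. Leaving out sham 1 raised the counts to 2160 above and 916 below. Leaving out any array can only keep or widen the gap of a given probe. The direction of these changes, and of the gaps without sham 1 given below, was therefore fixed in advance and does not show a stronger separation. Without tolterodine 3 there were 1006 below, and without pBOO 1 there were 737. Genes that passed the test numbered 2064 without tolterodine 1 and 2161 without tolterodine 2. The shares of all genes, 21.5% higher, 9.02% lower, 15% above and 4.77% below, are those to set beside the list counts below.

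Passing the test and lying outside were not the same thing. Of the 3136 genes that passed and had every array, 1345 overlapped the untreated range. The gap is the distance from the nearest tolterodine array to the nearest untreated array, written below with a minus sign for genes below. Its median size was 0.27 log2 above and 0.12 below. It was 1 log2 (2-fold) or more for 100 genes above and 4 below. The mean of the sham group was the nearer for 872 of the genes above and 304 of those below, and the pBOO mean for 648 and 178.

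**Figure D1:**
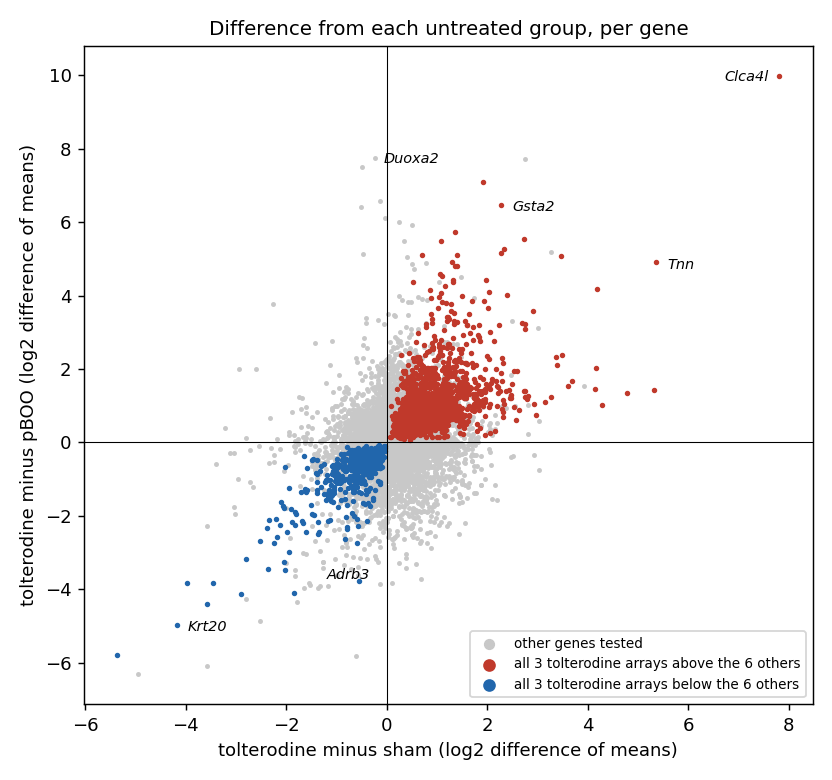
Each point is a gene: the horizontal axis gives its tolterodine mean minus its sham mean and the vertical axis its tolterodine mean minus its pBOO mean, both in log2. Red genes (1520) lie above and blue genes (482) below all 6 untreated arrays; Clca4l, at the upper right, was not well above background on the pBOO arrays and 2 of 3 sham arrays, so its position there is a distance from background. Duoxa2 lies at 7.76 against pBOO and -0.24 against sham.

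Krt20 and Ihh had the largest gaps below. Krt20, the keratin of umbrella cells, stood at -4.02, -4.32 and -3.77 on tolterodine arrays 1 to 3. Its levels were 0.26, 1.49 and 1.05 on the pBOO arrays and -1.94, 1.31 and 1.05 on the sham arrays. The gap was -1.83 log2, set by sham 1, and -4.04 when sham 1 was left out. Ihh, a hedgehog ligand, stood at -3.78, -4.46 and -3.1 with tolterodine, at 0.37, 0.85 and 0.65 in pBOO and at -1.7, 0.75 and 0.35 in sham, a gap of -1.4, or -3.45 without sham 1. Its further probe was dim, and there sham 1 at -7.8 lay among the tolterodine arrays, which were at -7.72 to -8.52.

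The 3 subunits of the epithelial sodium channel did not move alike. Scnn1g, the γ subunit, stood at -0.61, -0.86 and -0.19 with tolterodine, at 0.65 to 1.47 in pBOO and at 0.87 to 2.03 in sham, a gap of -0.84 log2. Scnn1b, the β subunit, stood at -1.73, -1.81 and -1.55 against -0.82 to 0.26 and -0.73 to -0.39, a gap of -0.73. The α subunit Scnn1a, looked up after these values were seen, was higher by 0.78 (SE 0.19; limma adjusted p = 0.0161) and overlapped, at -4.2 to -3.57 with tolterodine and at -4.88 to -3.99 on the other arrays. Trpv4, a cation channel that senses stretch and osmolarity, had a gap of -0.58. It stood at 0.17, -0.13 and 0.45 with tolterodine and between 1.02 and 1.23 on the 6 other arrays.

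Of 19 genes of the urothelium list tested, 6 passed higher and 3 lower, and of 11 with every array only Krt20 lay outside. List members given here and below without a gap were picked after their values were seen. The median difference was 0.2, beside 0.09 over all genes tested, with 0.58 against pBOO and -0.53 against sham. The balance of calls turned with the setting: 4 higher and 5 lower with median scaling, and 5 and 6 with flagged spots kept. Within scan 1, which holds no pBOO array and so compares with sham alone, 3 were higher and 10 lower at a median of -0.3. Basal keratins Krt14 and Krt17 rose by 1.67 (SE 0.15; limma adjusted p = 0.000414) and 1.55 (SE 0.17; limma adjusted p = 0.000315), the former without tolterodine 1 and sham 1, whose spots were flagged. Krt18, a keratin of simple epithelia with flagged spots on tolterodine 3 and pBOO 2, fell by 0.74 (SE 0.20; limma adjusted p = 0.0328), and Pparg, a nuclear receptor of urothelial differentiation, fell by 0.52 (SE 0.14; limma adjusted p = 0.0243). Krt5 and Krt8 did not pass, at -0.01 (SE 0.22) and -0.19 (SE 0.27). The uroplakins Upk2 and Upk1a had flagged spots; with those spots kept, the differences were -1.05 and -0.56, and that of Upk3a was 0. Upk2 then lay below as well, with a gap of -0.14.

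**Figure D2:**
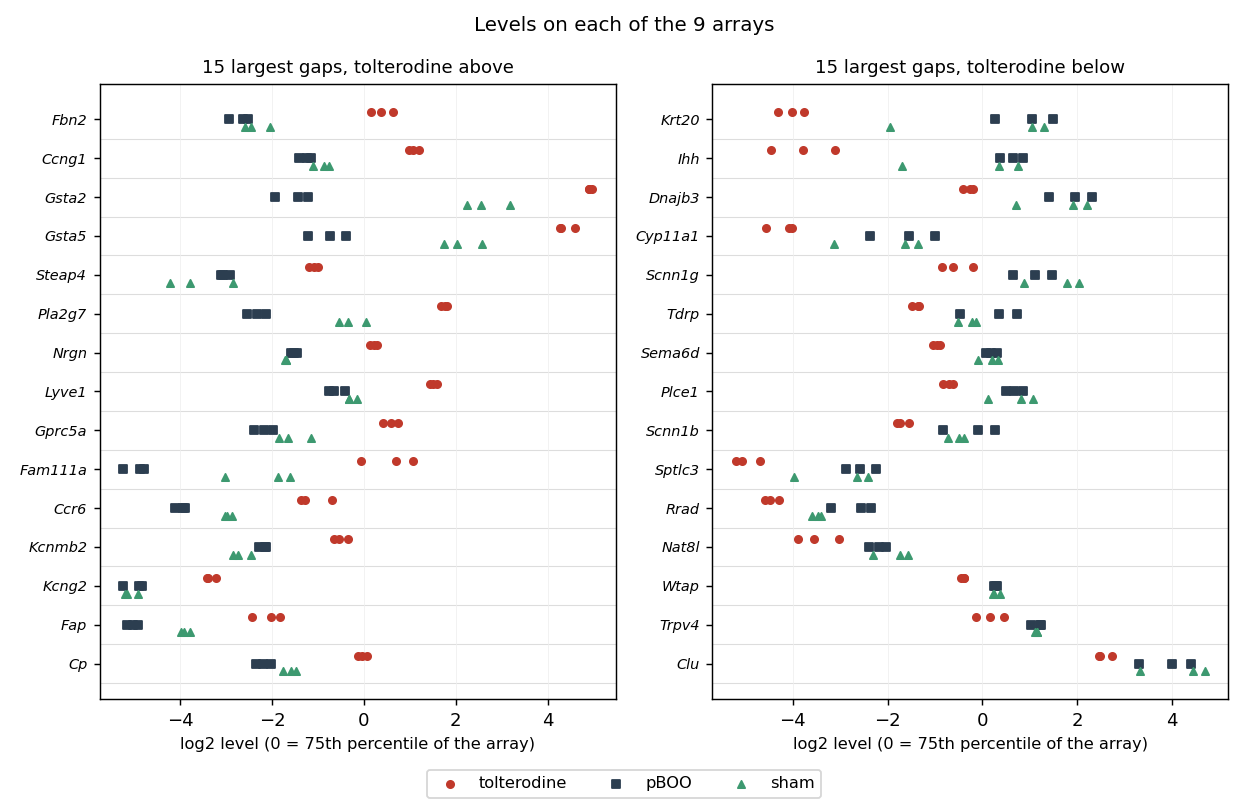
Levels of the 15 genes with the largest gap above (left) and below (right) among genes well above background on all 9 arrays, with 1 point per array on a log2 axis where 0 is the 75th percentile of the array. Krt20, Ihh and Cyp11a1 show sham 1 between the tolterodine arrays and the other untreated arrays, while the sham arrays of Wtap and Trpv4 lie together.

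The largest gap above belonged to Clca4l, a member of the family of calcium-activated chloride channel regulators made by epithelia. It was named after its value was seen, since the rule for leading genes asked for a signal well above background on every array. It stood at 2.07, 2.21 and 1.75 on the tolterodine arrays, at -7.81, -7.99 and -8.15 on the pBOO arrays and at -5.11, -6.19 and -6.1 on the sham arrays. The pBOO arrays were not well above background and 1 of 3 sham arrays was, so the probe went from near background to well over the 75th percentile. The tolterodine mean was at least 265-fold over pBOO, where the bound sets it against the lowest signal called well above background on each pBOO array. The gap of 6.87 log2 became 6.74 with median scaling, 6.51 with quantile scaling and 4.55 with normexp.

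Other Clca genes, looked up after Clca4l, were high in tolterodine with smaller distances from sham. Clca1 stood at 1.5, 1.68 and 1.2 with tolterodine, at -4.39 to -4.08 in pBOO and at 0.73, -0.4 and -0.01 in sham, a gap of 0.46. Clca4 had a gap of 0.31, at -1.9 to -1.74 with tolterodine, -2.63 to -2.21 in sham and -4.16 to -3.74 in pBOO. Clca2 and Clca5 overlapped the sham arrays. Probes of such near-identical genes may share signal, which was not tested. Ly6d, a surface protein of squamous and basal epithelium, was also named after its value was seen. It stood at -1.31, -1.25 and -1.01 with tolterodine, at -8.38 to -8.13 in pBOO and at -3.61 to -2.54 in sham. Krt4, a keratin of stratified epithelium, lay at 0.98, 1.29 and 0.55 against -1.95 to -0.46 in the 6 others.

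**Figure D3:**
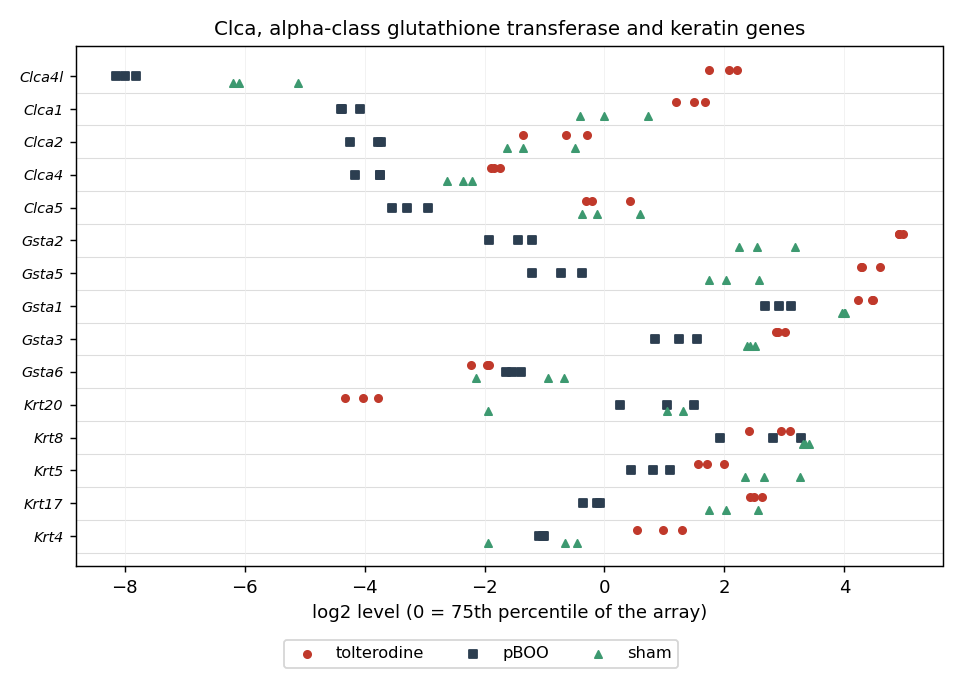
Levels of Clca genes, alpha-class glutathione transferases and keratins on the 9 arrays, on a log2 axis where 0 is the 75th percentile of the array. Clca4l, Gsta2 and Gsta5 show the tolterodine points to the right of all others, Krt20 shows them to the left, and Gsta6, Krt5, Krt8, Clca2 and Clca5 overlap.

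Enzymes of glutathione and of the NRF2 response, which detoxify electrophiles and peroxides, were higher together. Of 26 tested, 18 passed higher and 1 lower, and 12 of 24 with every array lay above and 0 below, beside 15% of all genes above. The median difference was 0.80, with 1.26 against pBOO and 0.37 against sham. Gsta2, a transferase that joins glutathione to electrophiles, stood at 4.91, 4.91 and 4.98 with tolterodine, at -1.93, -1.21 and -1.44 in pBOO and at 3.18, 2.25 and 2.55 in sham. Gsta5 stood at 4.3, 4.27 and 4.6 against -1.21, -0.38 and -0.73, and 2.57, 1.74 and 2.03. The gaps were 1.73 and 1.7 log2, and the untreated groups were far from each other. These transferases are close in sequence, so a probe may read several of them. Gpx3, the secreted glutathione peroxidase, showed another order, with pBOO above sham. Its levels were -0.82, -0.61 and -0.79 with tolterodine, -2.45 to -2.02 in pBOO and -2.93 to -2.58 in sham, a gap of 1.2.

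Further members above were Srxn1, which reactivates peroxiredoxins, with a gap of 0.56, the quinone reductase Nqo1 with 0.44 and Gclc, the enzyme that starts glutathione synthesis, with 0.34. Prdx6, Gsta1, Txnrd1, Gstm2, Gstp1, Mgst1 and the cystine transporter Slc7a11 had gaps of 0.24 or less. Gpx2, the glutathione peroxidase of epithelia, had a flagged spot on pBOO 1. It stood at 3.03, 3.17 and 3.21 with tolterodine, at -0.9 and -0.71 on pBOO 2 and 3, and at 1.88, 1.03 and 1.32 in sham. Sod3, extracellular superoxide dismutase, was the member that fell, by 0.40 (SE 0.11; limma adjusted p = 0.0215). The NRF2 target Hmox1 rose by 0.68 (SE 0.20; limma adjusted p = 0.0316) and overlapped sham 1.

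Promoters of these genes were read from RefSeq sequence on build GRCr8, 250 bases before each gene start. The core of the antioxidant response element was searched as TGACNNNGC on both strands. It was in 10.2% of all RefSeq promoters, in 12.2% of those of genes tested, in 10.4% of those of genes above and in 14% of those of genes below. In the glutathione and NRF2 list it was in 6 of 22 matched promoters: Sod2, Gstp1, Gclm, Prdx1, Gpx2 and Me1. Of these only Gstp1 is among the 12 list members that lay above. A match is a description of letters and not a bound site. The windows of Gpx2 and Gstp1 are shown because they hold the core beside genes of that list. Krt20, the leading gene below, also holds it, and Clca4l, the leading gene above, does not. They lie at chr6:101230034-101230283 (Gpx2), chr1:210769706-210769955 (Gstp1), chr10:84890286-84890535 (Krt20) and chr2:236506484-236506733 (Clca4l), all on the minus strand. Capitals mark the core, whose first printed base lies 13, 61 and 83 bases before the start in Gpx2, Gstp1 and Krt20. In Gpx2 it is read on the opposite strand.
Gpx2: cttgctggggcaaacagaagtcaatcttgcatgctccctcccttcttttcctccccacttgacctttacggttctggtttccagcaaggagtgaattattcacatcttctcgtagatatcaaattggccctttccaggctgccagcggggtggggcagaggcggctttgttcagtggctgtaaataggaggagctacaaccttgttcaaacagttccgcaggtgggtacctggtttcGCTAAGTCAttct
Gstp1: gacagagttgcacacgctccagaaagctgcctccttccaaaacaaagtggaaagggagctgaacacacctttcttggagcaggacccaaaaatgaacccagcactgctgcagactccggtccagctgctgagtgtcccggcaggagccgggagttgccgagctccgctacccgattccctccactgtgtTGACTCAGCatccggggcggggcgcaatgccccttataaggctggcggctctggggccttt
Krt20: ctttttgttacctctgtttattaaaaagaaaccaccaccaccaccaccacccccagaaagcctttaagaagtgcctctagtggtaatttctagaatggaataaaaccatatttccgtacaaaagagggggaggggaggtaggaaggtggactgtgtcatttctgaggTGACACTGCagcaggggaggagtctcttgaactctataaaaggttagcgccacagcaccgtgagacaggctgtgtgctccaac
Clca4l: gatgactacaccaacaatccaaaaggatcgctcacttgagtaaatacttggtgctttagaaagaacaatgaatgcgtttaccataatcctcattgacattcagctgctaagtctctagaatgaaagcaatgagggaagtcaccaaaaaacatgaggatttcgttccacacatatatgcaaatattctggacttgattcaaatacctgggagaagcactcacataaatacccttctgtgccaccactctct

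Of 25 genes of the drug metabolism list tested, 7 passed higher and 2 lower, with 7 of 24 above and 1 below, beside 21.5% higher and 15% above among all genes. With the scan as a fixed block 6 were higher and 8 lower at a median of -0.39, with a random block 6 and 6, with quantile scaling 6 and 5, and without sham 1 there were 8 and 6. Adh7, an alcohol dehydrogenase of epithelia that oxidises retinol, stood at 3.24, 3.41 and 3.2 with tolterodine, at 0.05 to 0.12 in pBOO and at 1.95, 1.5 and 1.59 in sham, a gap of 1.25. Cyp1b1, a monooxygenase, had a gap of 0.81 (1.43 without sham 1) and the flavin monooxygenase Fmo1 one of 0.69. Fmo5 was the member below, with a gap of -0.08.

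Macrophage markers were above the untreated range in a larger share than those of the other cell type lists counted here. Of 25 tested, 21 passed higher and 0 lower, and 17 of 23 with every array lay above, beside 15% of all genes. The mean over these 23 genes was 0.21 to 0.26 on the tolterodine arrays, -1.38 to -1.29 on the pBOO arrays and -0.68 to -0.42 on the sham arrays, so the groups did not overlap. Lyve1, a hyaluronan receptor of tissue macrophages and lymphatic endothelium, stood at 1.43, 1.59 and 1.51 with tolterodine, at -0.41, -0.76 and -0.65 in pBOO and at -0.14, -0.32 and -0.33 in sham. Cd163, which takes up haemoglobin, stood at 0.59, 0.74 and 0.17 against -1.98 to -1.9 in pBOO and -1.29 to -1 in sham. The lysosomal marker Cd68, at 0.41, 0.37 and 0.91, had a gap of 0.38. Csf1r and Cd14 passed higher but overlapped, and Itgam did not pass at 0.18 (SE 0.20). Pla2g7, which inactivates platelet-activating factor and is made by macrophages, stood at 1.77, 1.8 and 1.69 with tolterodine, at -2.54 to -2.14 in pBOO and at -0.54 to 0.05 in sham.

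Complement genes, many of which macrophages express, were above as well. Of 18 tested, 13 passed higher and 0 lower, with 10 of 15 above. The median difference was 1.06, with 1.82 against pBOO and 0.62 against sham. C1qb, a chain of the recognition subunit C1q, stood at 4.5, 4.48 and 4.75 with tolterodine, at 2.23, 2.04 and 2.16 in pBOO and at 3.35, 2.94 and 3.02 in sham. C1qc had a gap of 1.11 and C1qa of 0.92. Class II antigen presentation and dendritic cell genes had 10 of 14 higher, 1 lower and 9 of 13 above. RT1-Da, a class II α chain, stood at 4.19, 4.24 and 4.25 against 2.05 to 2.19 in pBOO and 2.72 to 3.42 in sham. RT1-Ba, the member that fell, went the other way by 3.07 (SE 0.87; limma adjusted p = 0.0289). It stood at -4.34, -4.12 and -5.49 with tolterodine, at -0.9, 0.2 and -0.21 in pBOO, and at -5.63 on sham 1 but -1.26 and -1.69 on sham 2 and 3. RT1-Bb lay above with a gap of 1.06 on its brightest probe (1.76 without sham 1, which also moved RT1-Da from 0.77 to 1.27), while the mean over its probes gave -0.24.

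Lysosomal genes had 11 of 26 higher, 1 lower, 8 of 24 above and 1 below. The protease genes Ctss and Ctsk had gaps of 0.79 and 0.76, and Laptm5, a lysosomal membrane protein of immune cells, one of 0.93. The list of prostaglandin, leukotriene, nitric oxide and arginase genes had 11 of 25 higher and 3 lower, with 8 of 24 above and 0 below. Tbxas1, thromboxane synthase, stood at -0.26, -0.22 and -0.17 against -2.07 to -1.94 in pBOO and -1.53 to -1.37 in sham, and Alox5ap, which serves leukotriene synthesis, had an equal gap of 1.11. Arg1, arginase, had a gap of 1. Cybb, the catalytic subunit of the phagocyte NADPH oxidase, had a gap of 0.96, and Rac2 and Ncf1, its regulators, had 0.31 and 0.21. Without sham 1 these gaps of Cybb, Rac2 and Ncf1 were 1.49, 0.84 and 0.38. The epithelial oxidase Duox2 passed at 3.22 but lay within the sham range: 2.06, 1.93 and 2.02 with tolterodine, 2.78, 1.56 and 2.07 in sham, and -4.65 to -4.51 in pBOO.

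Neutrophil markers had 8 of 9 higher and 0 lower, with 5 of 9 above. Of the 15 listed, 4 were too dim to be tested and 2 had no probe. The median difference of 2.3 came mainly from pBOO (3.43 against pBOO, 1.06 against sham). It was 0.97 with normexp and 1.42 with no filter on dim probes. Lcn2, an iron-scavenging protein of neutrophils and inflamed epithelium, stood at -0.53, -0.59 and -0.54 with tolterodine, at -4.14 to -3.84 in pBOO and at -1.97 to -1.45 in sham. Il1r2, a decoy receptor for interleukin 1, had a gap of 0.72 and the calcium-binding S100a8 one of 0.61, or 1.35 and 1.12 without sham 1. T and NK cell genes had 5 of 15 higher, with 5 of 14 above. Cd3d, a chain of the T cell receptor complex, stood at -0.56, -0.52 and -0.65 against -1.74 to -1.65 in pBOO and -1.41 to -1.24 in sham. The panleukocyte gene Ptprc, outside these lists, had a gap of 0.12.

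Mast cell genes split. Of 11 markers of mast cells and eosinophils tested, 3 passed higher and 2 lower, with 3 of 10 above and 0 below. Tpsab1, a mast cell tryptase, stood at -3.14, -3.06 and -2.81 with tolterodine, at -4.49 to -4.23 in pBOO and at -3.77 to -3.6 in sham. Cpa3 and the chymase Cma1 did not pass, at -0.12 (SE 0.34) and 0.37 (SE 0.37). Further mast cell proteases, looked up after their values were seen, lay below with sham 1 beside the tolterodine arrays. Mcpt9 stood at -4.44, -4.73 and -3.67 with tolterodine, at -1.01, 0.06 and -0.36 in pBOO, and at -3.58 on sham 1 but 0.83 and 0.3 on sham 2 and 3. Mcpt8 stood at -2.07, -2.67 and -2.08, at -0.01 to 0.84 in pBOO, and at -1.97, 1.57 and 1.17 in sham. The gaps of -0.09 and -0.11 therefore rest on the distance from sham 1, while the other 5 untreated arrays were far higher. Myoc showed the same split of the sham arrays, at -6.98 to -5.56 with tolterodine, -0.21 to -0.09 in pBOO and -7.84, 0.15 and -0.33 in sham.

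Chemokines and cytokines had 24 of 38 higher and 1 lower, with 13 of 36 above and 1 below, at a median difference of 0.82. That median came mainly from pBOO, at 1.28 against pBOO and 0.3 against sham. Ccr6 and its ligand Ccl20 were both above. Ccr6 stood at -1.29, -1.37 and -0.69 with tolterodine, at -4.11 to -3.89 in pBOO and at -3.02 to -2.87 in sham. Ccl20 stood at -3.88, -3.54 and -4.27, but 0 of 3 pBOO and 1 of 3 sham arrays were well above background. Its gap was 1.13, or 1.72 without sham 1. Ccl6 and Cxcl2, which draw myeloid cells, had gaps of 1 and 0.93. Il1b and Il6 passed, at 1.77 and 1.20, and overlapped the sham arrays. Ccl11, eotaxin, was the member below: -1.54, -2.02 and -0.65 with tolterodine, 0.66 to 0.88 in pBOO and -0.5, 0.76 and 0.52 in sham.

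**Figure D4:**
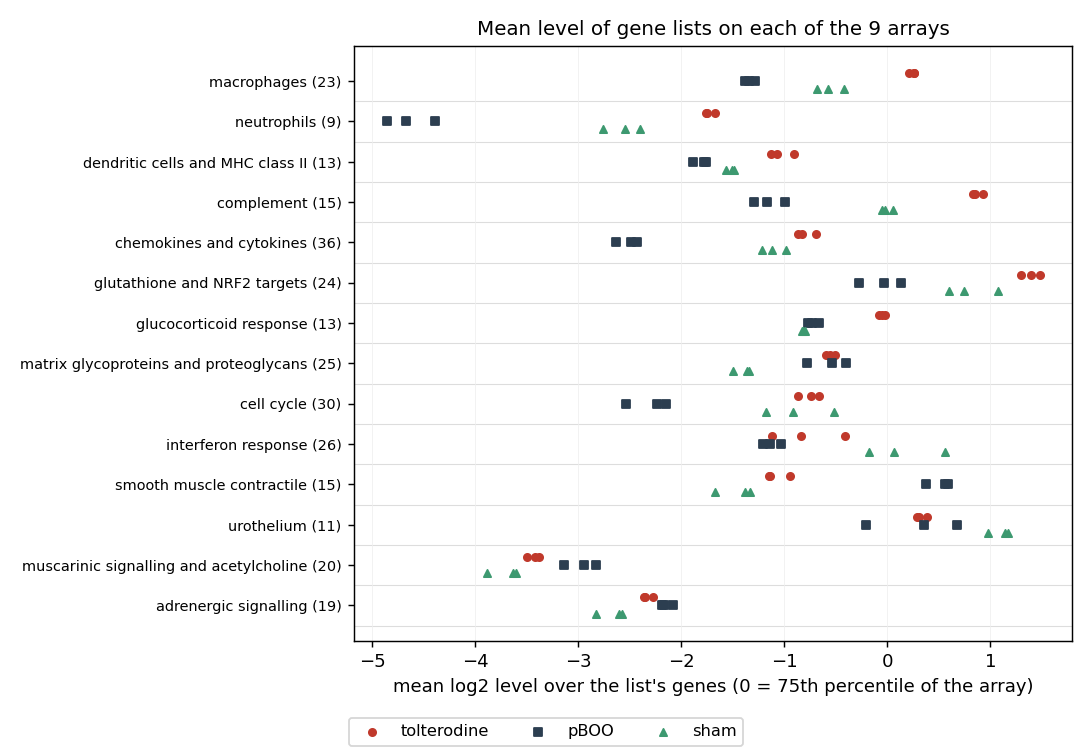
Mean log2 level over the genes of each list (number of genes with every array in brackets) on each of the 9 arrays, where 0 is the 75th percentile of the array. Macrophage, neutrophil, class II, complement, chemokine, glutathione and glucocorticoid means lie to the right of all 6 untreated arrays on the 3 tolterodine arrays, while cell cycle, interferon, muscle, urothelial, muscarinic and adrenergic means lie between or among the untreated groups.

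Of 26 matrix glycoproteins and proteoglycans, 10 passed higher and 3 lower, with 6 of 25 above and 1 below. The mean over these 25 genes was -0.6 to -0.51 with tolterodine, within the pBOO range of -0.78 to -0.4 and above sham at -1.5 to -1.34. Fbn2, a fibrillin of elastic microfibrils, had the largest gap among genes well above background on all 9 arrays. It stood at 0.37, 0.64 and 0.16 with tolterodine, at -2.52, -2.94 and -2.64 in pBOO and at -2.04, -2.6 and -2.46 in sham, a gap of 2.2 log2 or 4.58-fold. Ltbp2, which binds fibrillin, stood at -1.28, -1.26 and -0.69 against -4.52 to -3.83 and -3.66 to -2.49, a gap of 1.21, or 1.97 without sham 1, and its further probe gave 1.14. Eln, elastin, had a gap of 0.82 and Mfap4, another microfibril protein, one of 0.53. Fn1, fibronectin, stood at -1.24, -1.09 and -1.08 with tolterodine, at -2.75 to -2.27 in pBOO and at -3.58 to -3 in sham. Vtn, vitronectin, was the list member below, at -5.87 to -5.79 with tolterodine, -2.91 to -1.27 in pBOO and -5.5 to -4.84 in sham. It was well above background on 1 of 3 tolterodine arrays.

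Of 8 collagens 6 passed higher and 0 lower, with 2 of 5 above: Col18a1 with a gap of 0.18 and Col8a1 with 0.08, the latter 0.48 without sham 1. Of the 20 listed, 10 had no probe, and Col1a2 and Col3a1 had flagged spots. The median difference of 0.64 was 0.3 against pBOO and 0.86 against sham. With median scaling, quantile scaling, normexp or the mean over probes, 4 passed higher. Col1a1, the main fibrillar chain, with a flagged spot on tolterodine 1, rose by 0.61 (SE 0.13; limma adjusted p = 0.0104). Matrix remodelling genes had 11 of 26 higher and 3 lower, with 7 of 23 above. Adamts5, an aggrecan protease, had a gap of 0.61 and Mmp12, a protease of macrophages, one of 0.44 (0.86 without sham 1). Mmp2, a gelatinase, had 0.51 on the brightest probe and overlapped on a further probe. Fap, a protease of activated fibroblasts, stood at -2.02, -1.83 and -2.44 with tolterodine, at -5.15 to -4.93 in pBOO and at -3.99 to -3.79 in sham. Among 13 fibroblast markers 7 passed higher and 1 lower, with 3 of 12 above and 1 below. The member below was Gsn, an actin-severing protein, at 2.57, 2.43 and 2.55 against 4.73 to 4.97 in pBOO and 2.88 to 3.56 in sham, a gap of -0.31, or -0.93 without sham 1.

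In smooth muscle the tolterodine arrays lay between pBOO and sham for most genes. Of 21 contractile genes 13 passed lower and 1 higher, yet only 2 of 15 were below all others, Itga7 and Ppp1r14a, with gaps of -0.21 and -0.03 (Itga7 -0.37 without sham 1). The mean over these 15 was -1.15 to -0.95 with tolterodine, 0.37 to 0.59 in pBOO and -1.67 to -1.33 in sham, so no tolterodine array lay outside. The median difference was -1.43 against pBOO and 0.21 against sham. Of the 30 genes listed, Actg2, Des, Myl6, Tagln and Tpm2 were not tested for flagged spots. With those spots kept, their differences were -0.1, -0.1, -0.01, -0.49 and -0.41. The list then had 11 lower and 1 higher at a median of -0.49, beside -0.64 in the main fit. Within scan 1, which compares with sham alone, 7 were higher and 7 lower at a median of 0.11. Myh11, smooth muscle myosin, stood at 0.92, 1.05 and 0.79 with tolterodine, at 3.26 to 3.64 in pBOO and at -0.16, 1.53 and 1.33 in sham. It fell by 1.27 (SE 0.33; limma adjusted p = 0.0203), with a difference of -2.57 (SE 0.38) from pBOO and 0.03 (SE 0.38) from sham. Striated muscle genes had 5 of 10 lower and 0 higher, with Myh2 below by a gap of -0.18, though a further Myh2 probe overlapped.

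Among the receptors that tolterodine blocks, none lay outside the untreated range and none passed the test against the average of both untreated groups. Differences from pBOO and sham in opposite directions cancel in that average. Chrm3, which contracts the detrusor, stood at -1.92, -1.87 and -2.1 with tolterodine, at -0.19, -0.82 and -0.38 in pBOO and at -3.06, -2.46 and -2.61 in sham. Its difference from the average was -0.37 (SE 0.18; limma adjusted p = 0.137), and within the shared scan tolterodine 1 and 2 were 0.64 above sham 2 and 3. The Chrm3 difference was -1.5 from pBOO alone (SE 0.2; limma adjusted p = 0.000585) and 0.75 from sham alone (SE 0.2; limma adjusted p = 0.0286). Chrm2, the most abundant subtype of the bladder, differed by 0.43 (SE 0.18; limma adjusted p = 0.101), Chrm4 by 0.56 (SE 0.20; limma adjusted p = 0.0661) and Chrm5 by -0.09 (SE 0.22; limma adjusted p = 0.782). Chrm2 differed by 0.88 from sham alone (limma adjusted p = 0.0161) and by -0.03 from pBOO alone. Its dimmer further probe placed tolterodine at -5.04 to -4.74, under pBOO at -4.34 to -4.12 and over sham at -7.31 to -6.21. The 2 probes thus differ on the distance of Chrm2 from pBOO. Chrm4 differed by 0.69 from pBOO alone (limma adjusted p = 0.0418) and by 0.43 from sham alone (limma adjusted p = 0.211). Chrm5 was well above background on 1 of 3 tolterodine and 0 of 3 pBOO arrays. Chrm1 was not among the genes tested. Of 22 genes of acetylcholine signalling 2 passed higher and 5 lower. Only Itpr1, the calcium release channel of the endoplasmic reticulum, lay outside, at -1.6, -1.48 and -1.58 against -1.42 on sham 1, a gap of -0.06, or -0.54 without that array.

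The β-adrenoceptor genes Adrb1 and Adrb3 overlapped the untreated range too. Adrb3, which relaxes the detrusor, fell by 2.67 (SE 0.58; limma adjusted p = 0.00938). It stood at -4.88, -4.63 and -4.73 with tolterodine, at -0.45, -1.17 and -0.7 in pBOO, at -2.25 and -2.6 on sham 2 and 3, and at -5.27 on sham 1. Sham 1 alone kept it from lying below, and without it the gap was -2.03. Adrb1 did not pass, at 0.58 (SE 0.25; limma adjusted p = 0.106). The α-adrenoceptor genes Adra1a and Adra2b were above. Adra1a stood at -0.25, -0.23 and -0.37 with tolterodine, at -1.88 to -1.37 in pBOO and at -1.65 to -1.45 in sham, a gap of 1. Adra2b had a gap of 0.9, and the receptor adaptor genes Arrb1 and Arrb2 were above as well. Of 22 adrenergic genes 5 passed higher (22.7%) and 2 lower, with 5 of 19 above (26.3%) and 0 below. Among all genes 21.5% were higher and 15% above.

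The potassium channel genes Kcnmb2 and Kcng2 were among the leading genes above. Potassium channel genes were not counted as a family, so no share of them can be set beside the 15% of all genes above. Kcnmb2, a regulatory subunit of the BK channel that damps detrusor contraction, stood at -0.55, -0.65 and -0.35 against -2.29 to -2.14 in pBOO and -2.85 to -2.46 in sham, but its dimmer further probe overlapped. Kcng2, a modulatory potassium channel subunit, stood at -3.42, -3.23 and -3.4 against -5.24 to -4.83 in the 6 others. Kcnma1, the pore of the BK channel, had a gap of 0.6 on the brightest probe, where sham 1 stood at -0.95 and sham 2 and 3 at -4.5 and -4.24. Its further probe was lowest with tolterodine 1 and 2, at -4.62 and -4.58, so the probes disagree. Of 21 purinergic and channel genes 5 passed higher (23.8%) and 6 lower, with 3 of 20 above (15%) and 1 below. Among all genes 21.5% were higher, 9.02% lower and 15% above, so the shares higher and above were near those of all genes. Trpm8, a member above, was well above background on 3 tolterodine arrays and 0 untreated arrays.

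Glucocorticoid response genes were higher against each untreated group alike, with medians of 0.73 against pBOO and 0.8 against sham. Of 15 tested, 11 passed higher and 0 lower, and 6 of 13 lay above. Fkbp5, a chaperone gene that glucocorticoid and progesterone receptors induce, stood at 1.96, 1.95 and 2.02 with tolterodine, at -0.17, -0.35 and -0.24 in pBOO and at 0.68, 0.61 and 0.62 in sham. Dusp1, a phosphatase of stress kinases, had a gap of 0.48, and Per1, also a clock gene, one of 0.36. Mt1, Hif3a and Nfkbia had gaps of 0.22 or less. Tsc22d3 rose by 1.24 (SE 0.14; limma adjusted p = 0.000684) without sham 2, whose spot was flagged. Nr3c1, the glucocorticoid receptor, did not pass at -0.39 (SE 0.14). The clock list of 15 had 5 higher and 6 lower. Ciart and Tef, repressor and activator of the clock, were below with gaps of -0.51 and -0.17.

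Several leading genes belong to none of these groups. Ccng1, a cyclin induced by p53, stood at 1.07, 1.19 and 0.99 with tolterodine, at -1.42 to -1.16 in pBOO and at -1.11 to -0.75 in sham. Fam111a, a protease gene, stood at 0.69, 1.06 and -0.06 against -5.24 to -4.8 and -3.02 to -1.61, and its further probe gave a gap of 1.72. Nrgn, which binds calmodulin, stood at 0.21, 0.28 and 0.13, with pBOO at -1.58 to -1.46 and sham at -1.72 to -1.7. Steap4, a metalloreductase, had a gap of 1.67, and Cp, the ferroxidase ceruloplasmin, had 1.35 (0.42 on its further probe). Gprc5a, an orphan receptor of epithelia, had a gap of 1.56.

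Below, Cyp11a1, which starts steroid hormone synthesis, stood at -4.57, -4.01 and -4.09 with tolterodine, at -2.36 to -1 in pBOO and at -3.14, -1.36 and -1.63 in sham, a gap of -0.87. The co-chaperone Dnajb3 had a gap of -0.9 (-0.68 on its further probe), Tdrp of -0.81, the guidance ligand Sema6d of -0.81, the phospholipase Plce1 of -0.73 and Sptlc3, which makes sphingoid bases, of -0.72. Rrad, a small GTPase that restrains calcium channels, had -0.71, Nat8l -0.62, Wtap of the RNA methylation complex -0.6, and Clu, the chaperone clusterin, -0.58. Without sham 1 the gaps of Cyp11a1, Dnajb3, Plce1 and Sptlc3 were -1.64, -1.59, -1.1 and -1.83. The further probes of Sema6d, Sptlc3 and Wtap overlapped. Clu stood at 2.48, 2.47 and 2.73 with tolterodine and at 3.3 to 4.7 on the 6 others. Under median scaling, quantile scaling, normexp, flagged spots kept and the mean over probes, 15 of the 15 leading genes above and 15 of 15 below stayed outside on the same side. The smallest gap in any of these was 0.24 above and 0.01 below, both with normexp. The leading genes were picked for the largest gaps on these same arrays. That they stayed outside is therefore a description and no separate support.

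Tolterodine arrays alone gave a signal well above background for 38 genes, and the 6 untreated arrays alone for 4. The former passed the filter on dim probes only through the tolterodine arrays, so their number says nothing more. Tnn, tenascin N of the matrix, stood at -1.93, -1.69 and -2.63 with tolterodine and at -7.86 to -6.14 elsewhere, at least 15.4-fold over pBOO and 11.7-fold over sham. Trh, the precursor of thyrotropin-releasing hormone, was at least 7.91-fold and 5.97-fold over them and Prss35, a serine protease homologue, at least 6.81-fold and 5.13-fold. Il24, a cytokine that acts on epithelium, had bounds of 3.43-fold and 2.59-fold, and Il22ra2, a soluble decoy for interleukin 22, of 2.87-fold and 2.17-fold. Reg1a, the tight junction gene Cldn2 and C3ar1, the receptor for complement C3a, had bounds between 1.95-fold and 3.46-fold, with a flagged pBOO spot each for Reg1a and Cldn2. Rgs11, Sult1c2a, F2 and Ablim3 were well above background on the untreated arrays only. Rgs11, a regulator of G protein signalling, was at least 4.03-fold lower than pBOO and 1.84-fold lower than sham, and its gap went from -0.75 to -1.28 without sham 1.

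Cell cycle genes had 22 of 30 higher and 0 lower, but 0 lay above, with a median of 1.47 against pBOO and 0.09 against sham. Interferon response genes had 1 of 32 higher and 4 lower, with Usp18 below by a gap of -0.21 that its further probe did not show. Their median was 0.27 against pBOO and -0.92 against sham. Respiratory chain genes had 1 higher and 1 lower of 28. Endothelial markers had 1 of 13 higher and 0 lower, with Emcn above. Growth factors and their receptors had 9 of 31 higher and 5 lower, with 6 of 29 above and 1 below, at a median of 0.17. Among them Ereg, Areg and Hbegf, ligands of the epidermal growth factor receptor, had gaps of 0.37 (1.07 without sham 1), 0.26 and 0.21, and the receptor gene Egfr was below with -0.12. Ereg was well above background on 0 of 3 pBOO arrays. The Wnt, hedgehog and Notch list had 8 of 28 higher and 5 lower, with 6 of 27 above and 3 below. There Sfrp4, a Wnt antagonist, was above by 0.84, and Wnt5b and Wnt5a were below with gaps of -0.36 (-0.81 without sham 1) and -0.03. The hedgehog targets Gli1 and Ptch1, at 0.20 (SE 0.12) and 0.15 (SE 0.22), did not pass.

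Genes at the edge of the rule show how small its narrowest gaps were. Uhmk1 stood at -2.12, -2.05 and -1.9 with tolterodine and counted as above with pBOO 2 also at -2.12 after rounding. Spatc1 and Dhx32 were equally near. Poglut1, Snx12 and Ttyh3 just missed, with sham 1 or pBOO 1 level with the lowest tolterodine array. On the lower side Ift88, Paf1 and Tusc2 just counted as below, and Ctbp1, Lhx6 and Pierce2 just missed. Without sham 1, Poglut1, Snx12, Lhx6 and Pierce2 met the rule, with gaps of 0.24, 0.2, -0.53 and -0.08.

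Further probes of the same genes are repeats of the same RNA. For genes above, 85 of 207 further probes (41.1%) were also above and 3 below, beside 14.3% above among all 1542 further probes. For genes below, 18 of 107 (16.8%) were also below and 3 above, beside 3.31% below among all. Dim genes were more often above: in 4 equal bins of mean level from dim to bright, 21.8%, 17.7%, 11.6% and 9.11% lay above and 2.81%, 4.2%, 6.61% and 5.46% below. Olfactory receptor genes, named after their values were seen, are such dim genes, with 79 of 183 above and 0 below. Their median difference was 0.7, or 0.6, 0.47 and 0.27 with median scaling, quantile scaling and normexp. With no filter on dim probes it was 0.1, with 147 of 1047 tested above, and the filter can be passed through the 3 tolterodine arrays alone. Among olfactory receptor genes well above background on all 9 arrays it was 0.64, with 35 of 104 tested above. Their median level was -4.38, -4.15 and -4.06 on the tolterodine arrays and -5.05 to -4.81 on the others. The median of the negative control spots did not follow that order, at -7.67, -7.76 and -8.45 with tolterodine, -8.37 to -8.05 in pBOO and -7.87 to -7.69 in sham. What the dim genes' shift comes from was not tested.

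**Figure D5:**
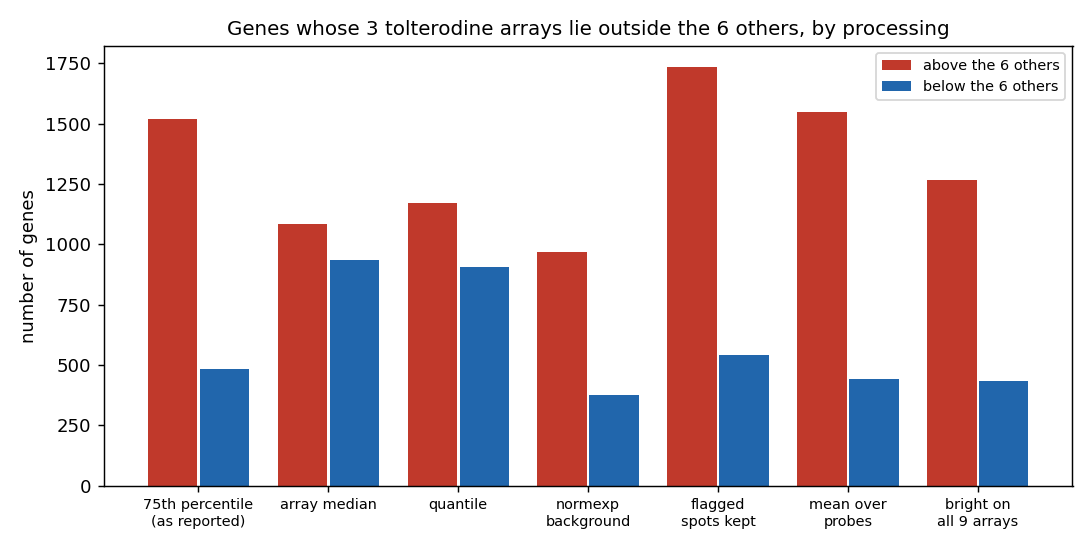
Number of genes whose 3 tolterodine arrays all lie above (red) or all below (blue) the 6 others under 7 ways of processing, on an axis that starts at 0. With array median or quantile scaling the counts are 1086 and 935, and 1170 and 905, against 1520 and 482 with the 75th percentile.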

How the data were processed

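RNA of 9 bladder samples was read on Agilent 1-colour arrays. The deposited scanner files hold background-subtracted signal intensity per spot and the scanner software's flags, made with Feature Extraction 11.0.1.1 per the file headers and 9.1 per the submitters' processing notes. Here log2 intensity minus the 75th percentile of each array over 42877 non-control spots was used. A probe had to be well above background on 3 or more arrays of the 9 (22144 of 30367 probes were), flagged spots were dropped, a group needed 2 unflagged arrays, and the brightest probe stood for a gene. Probes were named where their accession matched 1 gene of RefSeq's GRCr8 table (18005 probes). A 3-group model was fitted with limma 3.58.1 in R 4.3.3, with Benjamini-Hochberg adjustment and a threshold of 0.05, and was tested on simulated data.

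A bound sets a group with 0 arrays well above background at the lowest signal called so on each array, or the probe's own signal if higher. Named genes were the 15 largest gaps on each side, up to 8 genes detected in the tolterodine or the untreated arrays alone, up to 3 genes a list, the muscarinic receptors, β-adrenoceptor genes and the 3 genes nearest the rule's edge on each side. Members, lists and rules were chosen with earlier results of these data known. The normexp alternative used median signals with an offset of 50. Replicate numbers showed no evident pairing of the samples. Deviations of same-numbered arrays correlated between -0.08 and 0.18, and those of other arrays between -0.18 and 0.16. With 3 arrays a group this cannot show that the samples were unpaired. A result for 1 gene that the rule names is not reported here.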

Additional observations from a re-analysis of the deposited data

Results flagged for a closer look

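Probes that carry no gene symbol here were left out of the gene comparisons. Of 6836 such probes kept with a value on every array, 1331 had their 3 tolterodine arrays outside the range of the 6 others, 1137 above (16.6%) and 194 below (2.84%), beside 15% and 4.77% of the named genes. The share above was near that of the named genes, so these counts only describe what was left out. The unnamed probes passed the same filter, which the 3 tolterodine arrays alone can satisfy. No gene can be given for them from the tables used.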

How the results depend on the processing

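The 3366 genes that passed, 2370 higher and 996 lower, and the 2002 outside, 1520 above and 482 below changed with these settings. Median scaling gave 1531 lower and 935 below, and quantile scaling 1599 and 905. Normexp gave 1702 changed, 1170 higher, 532 lower and 969 above. Scan as a fixed block gave 1722 lower and as a random block 1495. A 2-group fit, which counts the distance between pBOO and sham as spread, gave 1102 changed, 919 higher and 183 lower. Within scan 1, with 2 tolterodine and 2 sham arrays, 5600 changed, 2292 were lower and 8158 lay outside, 4674 above and 3484 below. That setting compares with sham alone, and the range of fewer arrays is easier to lie outside. These counts are therefore not like those of the main fit, and why more genes passed was not tested. A 2-fold minimum left 1100, 855 and 245, with 730 outside, 623 above and 107 below. The replicate block gave 3006 changed.

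Leaving out each array gave 2064 to 4350 changed, 1605 to 2866 higher, 459 to 1484 lower, 2065 to 3076 outside, 1583 to 2160 above and 482 to 1006 below. Here too, fewer arrays make it easier to lie outside. Lower genes numbered 459 without tolterodine 1, 538 without tolterodine 2, 586 without pBOO 3 and 599 without sham 3. Below there were 1006 without tolterodine 3, 737 without pBOO 1 and 916 without sham 1. The sign of 4 named genes changed: Mbp to 0.48 with flagged spots kept, RT1-Bb to -0.24 over its probes, Wt1 to -0.65 with the fixed block and Chrm3 to 0.64 within scan 1. For Chrm3 that setting held no pBOO array and so gave a difference from sham, which was 0.75 in the main fit. The causes of the other changes were not tested. Without sham 1 and with a random scan block, chosen after seeing the data, 3892 genes changed. The number of arrays and background signal of dim probes limit the precision, and tolterodine and pBOO arrays shared no scan.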
